A study of Mus musculus with 7 samples.

Results

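The nuclear-encoded subunits of the oxidative phosphorylation complexes were followed in microglia, the resident macrophages of the brain, taken from mice that carried an implanted 005 glioma. Members were the protein-coding rows whose symbols carry the usual subunit names (Ndufa, Ndufb, Ndufc, Ndufs, Ndufv, Ndufab1, Sdha to Sdhd, Uqcr, Cyc1, the lettered Cox5 to Cox8 families and Atp5). Of 24537 rows in the table, 84 matched by name, and 82 of these reached 1 FPKM in 2 or more of the 7 libraries and are the members described here. Cox7b2 and Cox8c, paralogs known from testis, stayed below that level. The rule used symbols and this level only.

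RNA came from cells sorted as CD45-intermediate and CX3CR1-positive from tumour-bearing C57BL/6 brains at day 35 after implantation. The groups were CD4 depletion + anti-CTLA4 (3 libraries), in which an antibody to the T cell checkpoint receptor CTLA4 was combined with depletion of CD4-bearing cells, anti-CTLA4 alone (2 libraries), and control IgG (2 libraries). Every group carried the tumour, and no tumour-free brain was analysed here. Nothing in the labels states whether libraries of a group came from different animals, so each p-value reflects library-to-library spread that could be technical. For anti-CTLA4 the column headings end in sheet numbers 29 and 30, and the command stored in the table's header uses those numbers for knockouts of the interferon-gamma receptor. The term "libraries labelled anti-CTLA4" marks this, and every direction drawn from these columns holds only if their label does. Ifngr1, a chain of that receptor, stood at 140, 142 and 133 FPKM under CD4 depletion + anti-CTLA4, 204 and 271 FPKM in the libraries labelled anti-CTLA4, and 143 and 107 FPKM in IgG. Its level was thus not low in the libraries in question, although a gene total cannot show a disrupted allele that is still transcribed.

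Oxidative phosphorylation takes electrons from NADH at complex I and from succinate at complex II, passes them through complexes III and IV to oxygen, and uses the resulting proton gradient to make ATP at complex V. A handful of subunits are encoded in the mitochondrial genome, while the members here are made in the cytosol and imported. In microglia, as in other macrophages, the balance between this pathway and glycolysis is known to shift with activation.

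FPKM, the authors' unit, divides fragments by transcript length and library depth, which puts different members on a common scale. How completely reads were assigned to each member was not checked, so ranks by level are approximate. The members were abundant: 27 averaged at least 100 FPKM over the libraries, 43 averaged 20 to 100 FPKM and 12 averaged less than 20 FPKM. Of the 82 members, 78 were at 1 FPKM or more in all 7 libraries. The other 4 were Atp5g2, Cox7a1, Cox8b and Ndufa4l2, and none of them passed the test in any comparison. Depth implied by the low values was 84100000 to 108000000 reads per library, with 49900000 to 61900000 in genes. Only 6 members fell under 100 implied reads in any library, and the lowest was Cox8b with 2 reads, so counting error was small for most members.

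In total, the members summed to 6982, 7882 and 9004 FPKM under CD4 depletion + anti-CTLA4, 5968 and 4469 FPKM in the libraries labelled anti-CTLA4, and 8340 and 9155 FPKM in IgG. As a share of all FPKM this was 2.54%, 2.92% and 3.18% under CD4 depletion + anti-CTLA4, 1.96% and 1.55% in the libraries labelled anti-CTLA4, and 3.06% and 3.31% in IgG. Both libraries labelled anti-CTLA4 lay below all 5 others. Anti-CTLA4 replicate 2 was the lowest of the 7 libraries for 74 of the 82 members and was below replicate 1 for 79. Within the CD4 depletion group, replicate 3 was above replicate 1 for 73 members.

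**Figure D1:**
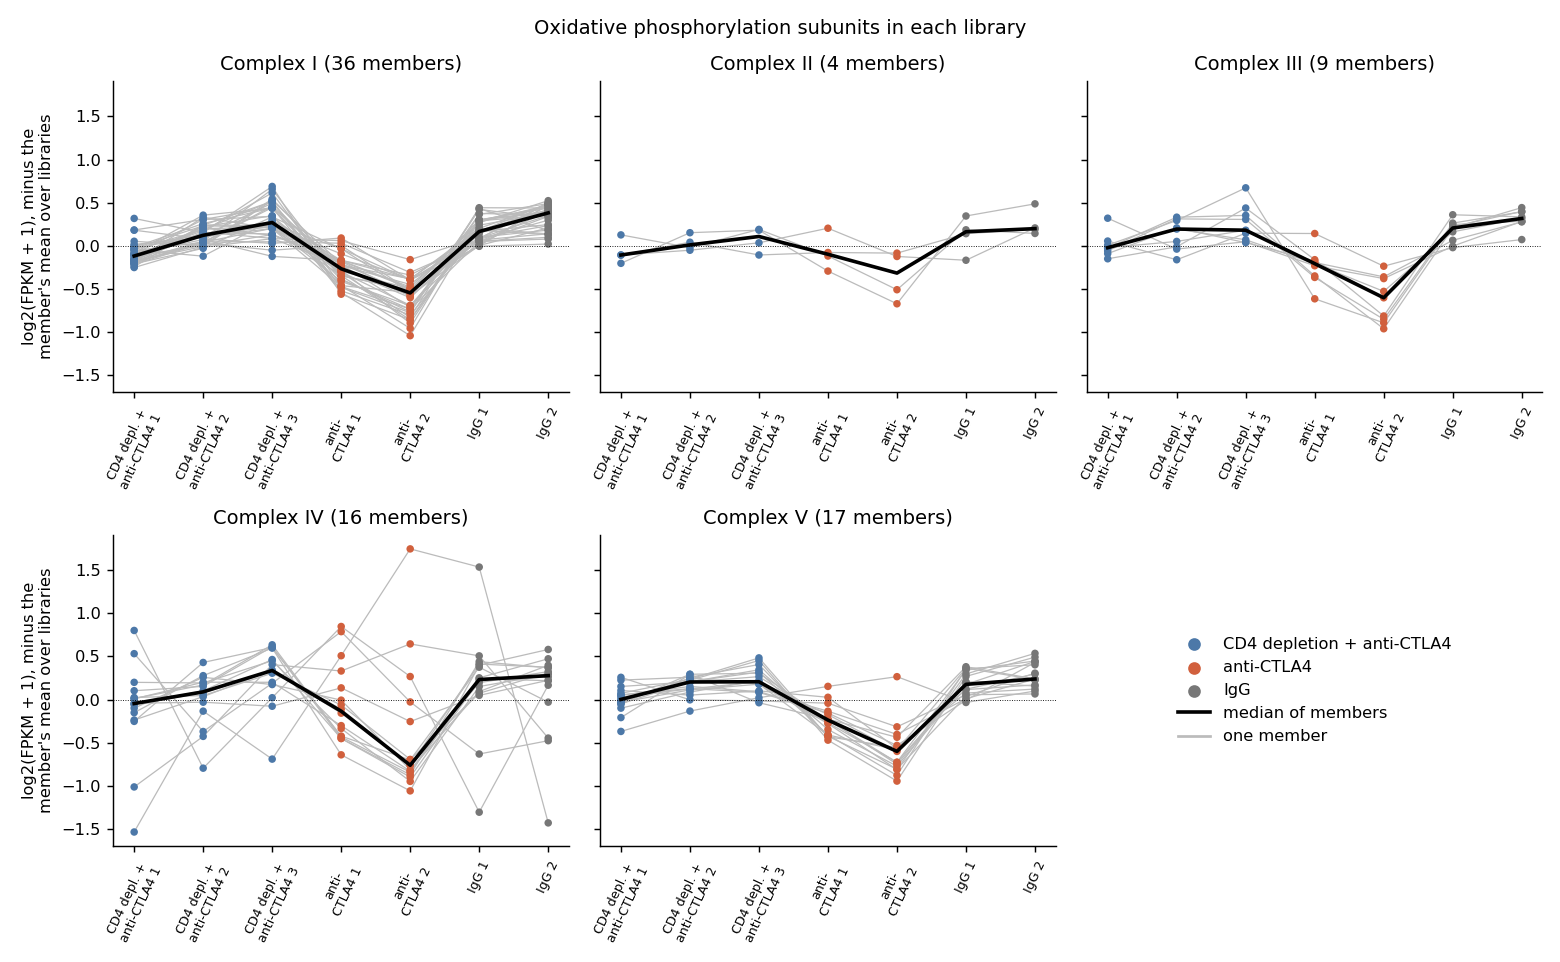
Each member's log2(FPKM + 1) minus its own mean over the 7 libraries, by complex. Grey lines are single members, coloured points give the group, and the black line is the median of the complex's members. The medians of all 5 complexes are lowest in anti-CTLA4 replicate 2, while several low-level paralogs of complex IV do not follow the others.

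The first comparison set microglia under the checkpoint antibody alone against control IgG. With limma on log2(FPKM + 1) and adjustment over all 13028 genes, 46 of the 82 members fell in the libraries labelled anti-CTLA4, 0 rose and 36 did not pass. Among all genes tested, 28.8% fell and 9.29% rose. The median log2 difference of the members was -0.68, with quartiles of -0.89 and -0.45, and the median over all genes tested was -0.31. In FPKM the median member stood at 61.8% of its IgG mean. For 73 members both libraries labelled anti-CTLA4 were below both IgG libraries, and for 3 (Cox6a2, Ndufa4l2 and Atp5sl) both were above. Over all genes tested these shares were 54.1% and 22.8%.

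The scale of the libraries bears on this count. Median-of-ratios scaling, which sets the typical gene equal between libraries, moved the median of all genes to -0.01. The members' median was then -0.33, with 7 members lower and 1 higher (Atp5sl), while over all genes the split was 2132 higher and 2050 lower in place of 1210 higher and 3747 lower. Quantile normalization, which also moved the median of all genes to -0.01, kept 34 members lower and 0 higher, with a median of -0.51, and over all genes 1928 were higher and 2081 lower. As deposited, the members' median lay -0.38 from that of all genes. The calls also rest on single libraries: 0 members were called by limma without anti-CTLA4 replicate 2, without IgG replicate 1 or without IgG replicate 2, where 30, 49 and 31 members had an unadjusted p under 0.05. Over all 13028 genes, 0 were called without anti-CTLA4 replicate 2 or without IgG replicate 1, and 235 were higher and 440 lower without IgG replicate 2. The members' median stayed between -0.88 and -0.52 when each library was left out in turn. With the level filter dropped 4 members were lower, as were 1364 of all genes. With libraries scaled to homeostatic microglia genes 78 members were lower, as were 8869 of all 13028 genes, whose median moved to -1.10.

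The libraries labelled anti-CTLA4 also differed in their cell markers. Of 21 genes of oligodendrocyte precursor-like and glioma cells, 20 were lower there than in IgG and 0 higher. Their FPKM summed to 260, 828 and 632 under CD4 depletion + anti-CTLA4, 129 and 53.6 in the libraries labelled anti-CTLA4, and 984 and 1369 in IgG. Of 23 homeostatic microglia genes 11 were higher and 0 lower (17 higher with median-of-ratios scaling and 3 with quantile normalization), and their FPKM summed to 14984, 20730 and 21118 under CD4 depletion + anti-CTLA4, 33746 and 42665 in the libraries labelled anti-CTLA4, and 18892 and 17717 in IgG. No gene of either list was at 0 in any library. The same held for the astrocyte and neuron lists, so it does not tell cell types apart. T and NK cell genes summed to at most 10.5 FPKM in any library. Of 12 endothelial and mural genes 7 were higher, of 5 erythroid genes 4 were higher, and of 18 cell cycle genes 9 were lower. In bulk RNA, fewer cells of a type and less RNA per cell cannot be told apart, and the part of these lists in the members' result was not tested.

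**Figure D2:**
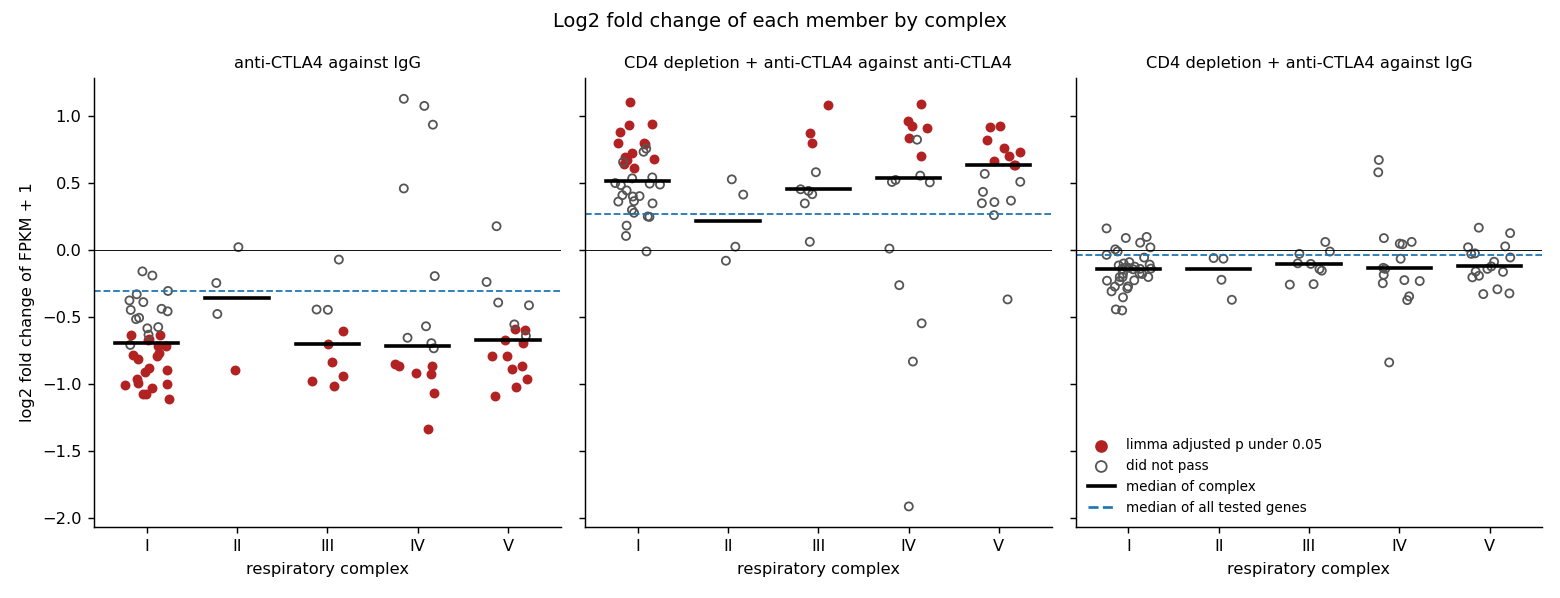
Log2 fold change of FPKM + 1 for each of the 82 members, by complex, in the 3 comparisons. Filled points passed limma's adjusted threshold, open points did not, black bars are medians of a complex and dashed lines are medians of all genes tested. The medians of complexes I, III, IV and V lie near -0.7 in the left panel, below the dashed line at -0.31, and all points are open in the right panel.

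Complex I, the NADH dehydrogenase, had 36 members, of which 21 fell under anti-CTLA4 against IgG and 15 did not pass, with a median log2 difference of -0.69. The called members ran from -1.11 (Ndufc1) to -0.63 (Ndufs4) and the others from -0.71 (Ndufb3) to -0.16 (Ndufb4). Of the 7 core subunits, which hold the flavin and the iron-sulfur clusters, 4 fell (median -0.67). Of the 29 supernumerary subunits, which surround that core, 17 fell (median -0.71).

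Ndufc1, a small supernumerary subunit of the membrane arm encoded at chr3:51405479-51408955 (mm10, minus strand), had the smallest p of the complex in this comparison and in the next. It stood at 83.00, 90.4 and 99.7 FPKM under CD4 depletion + anti-CTLA4, 49.9 and 34.9 FPKM in the libraries labelled anti-CTLA4, and 89.4 and 93.7 FPKM in IgG. Neither library labelled anti-CTLA4 came near the other 5, which lay close together. The log2 difference was -1.11 (SE 0.20, adjusted p = 0.0110) for anti-CTLA4 against IgG, and 1.10 (SE 0.18, adjusted p = 0.0130) for CD4 depletion + anti-CTLA4 against anti-CTLA4.

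Ndufv2, a core subunit with an iron-sulfur cluster next to the site of NADH oxidation, was measured at 38.9, 55.9 and 50.95 FPKM under CD4 depletion + anti-CTLA4, 31.6 and 26.2 FPKM in the libraries labelled anti-CTLA4, and 57.2 and 62.5 FPKM in IgG. Its 2 lowest libraries were again those labelled anti-CTLA4, and the log2 difference from IgG was -1.03 (SE 0.21, adjusted p = 0.0125). Ndufa10, a supernumerary subunit, was at 53.8, 64.7 and 64.1 FPKM under CD4 depletion + anti-CTLA4, 41.1 and 33.6 FPKM in the libraries labelled anti-CTLA4, and 63.4 and 77.2 FPKM in IgG, a log2 difference of -0.90 (SE 0.19, adjusted p = 0.0132) for anti-CTLA4 against IgG. At the other end, Ndufb4, a membrane arm subunit, had values of 17.9, 16.6 and 16.02 FPKM under CD4 depletion + anti-CTLA4, 16.8 and 11.7 FPKM in the libraries labelled anti-CTLA4, and 15.6 and 15.9 FPKM in IgG. The anti-CTLA4 and IgG libraries of Ndufb4 overlapped, and the difference of -0.16 (SE 0.19, adjusted p = 0.521) did not pass.

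Complex II, succinate dehydrogenase, also belongs to the tricarboxylic acid cycle and has 4 subunits, all of them nuclear. Its median log2 difference for anti-CTLA4 against IgG was -0.36, and 1 of the 4 members fell. That median was 0.00472 with median-of-ratios scaling, where complexes I, III, IV and V ran from -0.40 to -0.33. Sdhc, a membrane anchor that helps bind haem and ubiquinone, was the member that fell. Its values were 58.6, 75.3 and 76.9 FPKM under CD4 depletion + anti-CTLA4, 55.03 and 42.1 FPKM in the libraries labelled anti-CTLA4, and 86.2 and 95.2 FPKM in IgG, with a log2 difference of -0.90 (SE 0.21, adjusted p = 0.0169) and no overlap between anti-CTLA4 and IgG.

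Sdhb, the iron-sulfur subunit, was at 78.5, 81.6 and 86.7 FPKM under CD4 depletion + anti-CTLA4, 97.6 and 77.6 FPKM in the libraries labelled anti-CTLA4, and 75.2 and 97.8 FPKM in IgG. Both anti-CTLA4 values of Sdhb lay inside the IgG range, and the log2 difference was 0.02 (SE 0.19, adjusted p = 0.942). With libraries scaled to the homeostatic list it turned to -1.01. Sdha, the flavin subunit that oxidises succinate, was at 58.5, 64.97 and 58.5 FPKM under CD4 depletion + anti-CTLA4, 59.7 and 59.4 FPKM in the libraries labelled anti-CTLA4, and 69.7 and 72.2 FPKM in IgG. The anti-CTLA4 values of Sdha were nearly equal to each other and below both IgG values, with a difference of -0.25 (SE 0.14, adjusted p = 0.202). Sdhd, the other anchor, was at 93.8, 84.6 and 98.1 FPKM under CD4 depletion + anti-CTLA4, 79.01 and 60.03 FPKM in the libraries labelled anti-CTLA4, and 97.8 and 94.9 FPKM in IgG, a difference of -0.48 (SE 0.18, adjusted p = 0.0734). Neither Sdha nor Sdhd passed.

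Complex II members made up 4.15%, 3.89% and 3.56% of the summed member FPKM under CD4 depletion + anti-CTLA4, 4.88% and 5.35% in the libraries labelled anti-CTLA4, and 3.94% and 3.93% in IgG. Atp5b over Sdhb, a pair picked after the values were seen, gives a ratio within each library that no single factor per library changes. It was 5.70, 6.50 and 7.18 under CD4 depletion + anti-CTLA4, 3.36 and 3.03 in the libraries labelled anti-CTLA4, and 7.28 and 6.53 in IgG. The share was thus highest, and the ratio lowest, in the 2 libraries labelled anti-CTLA4. A test of 2 libraries against 2 or 3 was not run on these ratios, and the difference between complexes was not tested.

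Complex III, the cytochrome bc1 complex, had 9 members, of which 6 fell and 3 did not pass (median -0.70). Cyc1, the haem-bearing cytochrome c1 that hands electrons to cytochrome c, is encoded at chr15:76343523-76345934 (mm10, plus strand). It stood at 103, 126 and 164 FPKM under CD4 depletion + anti-CTLA4, 66.8 and 54.9 FPKM in the libraries labelled anti-CTLA4, and 122 and 125 FPKM in IgG. Both anti-CTLA4 values lay below all 5 remaining libraries, with differences of -1.02 (SE 0.24, adjusted p = 0.0177) for anti-CTLA4 against IgG and 1.08 (SE 0.22, adjusted p = 0.0165) for CD4 depletion + anti-CTLA4 against anti-CTLA4.

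Uqcrq, a small subunit near the ubiquinone site, was at 60.6, 77.9 and 79.02 FPKM under CD4 depletion + anti-CTLA4, 48.2 and 31.2 FPKM in the libraries labelled anti-CTLA4, and 71.3 and 84.2 FPKM in IgG, with a log2 difference from IgG of -0.98 (SE 0.24, adjusted p = 0.0214). Uqcr10, another small subunit, was at 152, 197 and 196 FPKM under CD4 depletion + anti-CTLA4, 123 and 87.4 FPKM in the libraries labelled anti-CTLA4, and 191 and 209 FPKM in IgG, with -0.94 (SE 0.23, adjusted p = 0.0205). In both, anti-CTLA4 replicate 2 was the lowest library. Uqcrh, the acidic hinge protein that contacts cytochrome c1, did not separate the groups, at 74.9, 64.4 and 79.9 FPKM under CD4 depletion + anti-CTLA4, 79.7 and 61.1 FPKM in the libraries labelled anti-CTLA4, and 71.04 and 75.9 FPKM in IgG. Its highest and lowest IgG values both lay inside the anti-CTLA4 range, and the difference was -0.07 (SE 0.19, adjusted p = 0.776).

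Complex IV, cytochrome c oxidase, had 16 members, of which 7 fell and 9 did not pass (median -0.72). Ndufa4, named for complex I but now placed in complex IV, had the largest drop of all members. It stood at 219, 295 and 368 FPKM under CD4 depletion + anti-CTLA4, 155 and 116 FPKM in the libraries labelled anti-CTLA4, and 321 and 364 FPKM in IgG. The anti-CTLA4 values were lower than all others, with a log2 difference of -1.34 (SE 0.28, adjusted p = 0.0139) from IgG and of 1.09 (SE 0.26, adjusted p = 0.0240) for CD4 depletion + anti-CTLA4 over anti-CTLA4.

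Cox7a2, the widely expressed form of subunit VIIa, stood at 122, 135 and 174 FPKM under CD4 depletion + anti-CTLA4, 92.02 and 68.5 FPKM in the libraries labelled anti-CTLA4, and 171 and 163 FPKM in IgG, a difference of -1.07 (SE 0.23, adjusted p = 0.0146) from IgG. Cox7b, a small subunit needed for assembly of the complex, was at 77.5, 80.3 and 111 FPKM under CD4 depletion + anti-CTLA4, 52.5 and 38.2 FPKM in the libraries labelled anti-CTLA4, and 84.3 and 86.7 FPKM in IgG. Its difference was -0.92 (SE 0.23, adjusted p = 0.0222) for anti-CTLA4 against IgG and 0.96 (SE 0.21, adjusted p = 0.0199) for CD4 depletion + anti-CTLA4 against anti-CTLA4. In Cox7a2 and Cox7b alike, the libraries labelled anti-CTLA4 were the 2 lowest. Cox6a1 and Cox8a, the ubiquitous forms of subunits VIa and VIII, were after Atp5b the most abundant members. Cox6a1 was at 301, 345 and 344 FPKM under CD4 depletion + anti-CTLA4, 243 and 168 FPKM in the libraries labelled anti-CTLA4, and 357 and 416 FPKM in IgG, with -0.93 (SE 0.24, adjusted p = 0.0230) against IgG. Cox8a was at 252, 304 and 377 FPKM under CD4 depletion + anti-CTLA4, 266 and 175 FPKM in the libraries labelled anti-CTLA4, and 396 and 386 FPKM in IgG, with -0.85 (SE 0.28, adjusted p = 0.0474) against IgG.

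Paralogs of these subunits that are known from muscle, testis or low oxygen were far less abundant, and their libraries scattered. Cox6a2, the muscle form of subunit VIa, stood at 9.78, 2.56 and 5.28 FPKM under CD4 depletion + anti-CTLA4, 10.1 and 6.44 FPKM in the libraries labelled anti-CTLA4, and 1.502 and 5.94 FPKM in IgG. Cox8b, a muscle and brown fat form of subunit VIII in mouse, was at 0.0520, 1.78 and 0.890 FPKM under CD4 depletion + anti-CTLA4, 3.34 and 9.24 FPKM in the libraries labelled anti-CTLA4, and 7.84 and 0.132 FPKM in IgG. The anti-CTLA4 and IgG values of Cox8b overlapped. Ndufa4l2, a paralog of Ndufa4 known as a target of hypoxia signalling, was at 1.74, 0.464 and 1.16 FPKM under CD4 depletion + anti-CTLA4, 2.27 and 0.857 FPKM in the libraries labelled anti-CTLA4, and 0.222 and 0.360 FPKM in IgG.

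The 2 values of Cox6a2 and of Ndufa4l2 in the libraries labelled anti-CTLA4 were above both IgG values, but the differences of 1.13 (SE 0.61, adjusted p = 0.172) for Cox6a2 and 0.93 (SE 0.37, adjusted p = 0.0816) for Ndufa4l2 did not pass. Cox6b2, the testis form of subunit VIb, was at 1.597, 2.899 and 5.94 FPKM under CD4 depletion + anti-CTLA4, 5.59 and 7.197 FPKM in the libraries labelled anti-CTLA4, and 6.45 and 2.85 FPKM in IgG, while Cox6b1, its ubiquitous partner, was at 246, 271 and 323 FPKM under CD4 depletion + anti-CTLA4, 237 and 151 FPKM in the libraries labelled anti-CTLA4, and 294 and 321 FPKM in IgG. Neither passed, with differences of 0.46 (SE 0.48, adjusted p = 0.469) for Cox6b2 and -0.70 (SE 0.26, adjusted p = 0.0715) for Cox6b1. Cox7a1, the muscle form of subunit VIIa, stayed low at 1.498, 3.01 and 3.52 FPKM under CD4 depletion + anti-CTLA4, 1.22 and 0.832 FPKM in the libraries labelled anti-CTLA4, and 2.86 and 1.92 FPKM in IgG, a difference of -0.73 (SE 0.32, adjusted p = 0.105). Cox6a2 lies across Itgad and Ndufa4l2 across Shmt2 on opposite strands, and reads were counted over exons on both strands. Whole gene intervals were compared and shared exons were not checked. Reads of these neighbours may therefore be counted with the members, to an unknown extent. In all, 13 members overlap another row of the table, among the genes named here also Ndufa10 and Atp5b (each with a microRNA), Atp5f1 (with Wdr77) and Ndufs5 (with BC002163).

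Cox4i1 and Cox4i2, the forms of subunit IV, are not members, since their symbols break the naming pattern. Cox4i1 stood at 346, 367 and 420 FPKM under CD4 depletion + anti-CTLA4, 344 and 232 FPKM in the libraries labelled anti-CTLA4, and 382 and 427 FPKM in IgG. Its difference of -0.52 for anti-CTLA4 against IgG did not pass (adjusted p = 0.137). Cox4i2, the form known from lung, was at 5.20, 0.317 and 1.33 FPKM under CD4 depletion + anti-CTLA4, 0.476 and 0.339 FPKM in the libraries labelled anti-CTLA4, and 0.411 and 0.578 FPKM in IgG.

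**Figure D3:**
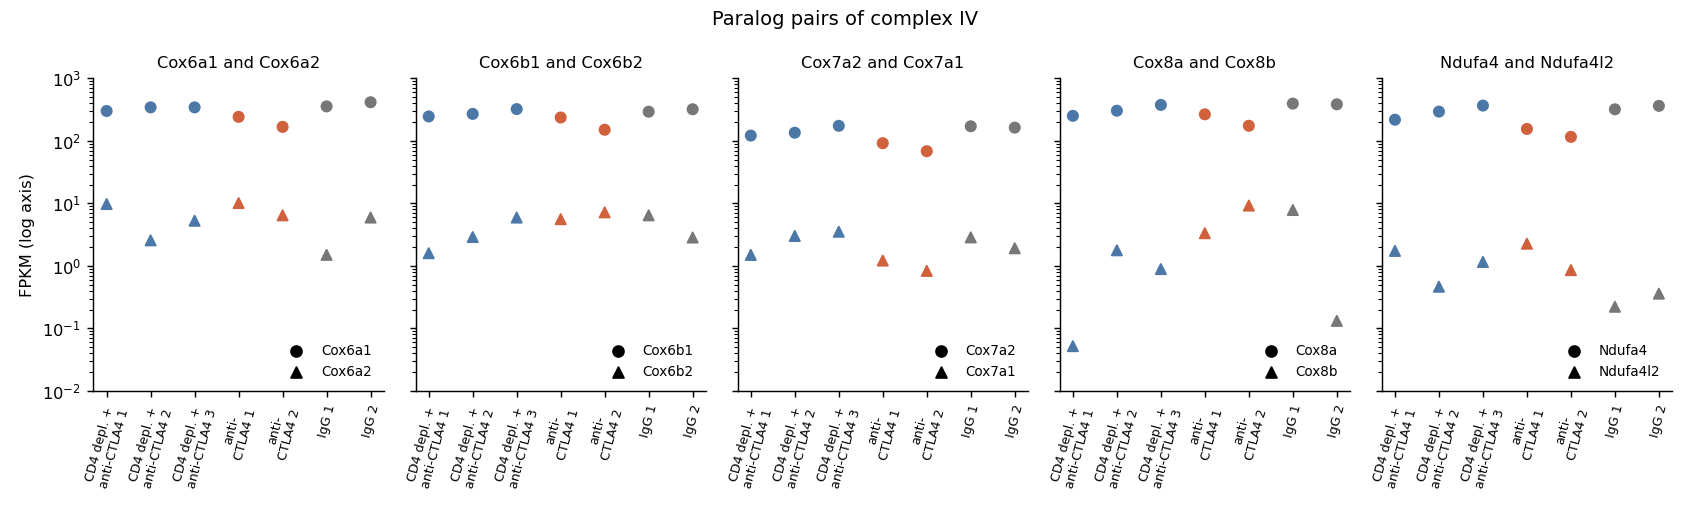
FPKM on a log axis for 5 paralog pairs of complex IV in each library, with circles for the ubiquitous form and triangles for the tissue-restricted form. Colours are those of the groups, blue for CD4 depletion + anti-CTLA4, red for anti-CTLA4 and grey for IgG. The lowest value of a ubiquitous form is 68.5 FPKM (Cox7a2) and the highest of a restricted form is 10.1 FPKM (Cox6a2).

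Complex V, ATP synthase, had 17 members by name, of which 11 fell and 6 did not pass (median -0.67). Of the 5 subunits of its catalytic F1 head, counted with the central stalk, 2 fell (median -0.56). Of the other 12 members, which include the c ring and the peripheral stalk, 9 fell (median -0.68). Atp5b, the catalytic beta subunit at chr10:128083307-128090388 (mm10, plus strand), was the most abundant member, at 448, 531 and 622 FPKM under CD4 depletion + anti-CTLA4, 327 and 235 FPKM in the libraries labelled anti-CTLA4, and 547 and 639 FPKM in IgG. The 2 anti-CTLA4 values lay below all others, a difference of -1.09 (SE 0.27, adjusted p = 0.0208) from IgG.

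Atp5g1, which encodes the c subunit of the rotor ring, had the smallest p of complex V, with 25.2, 30.8 and 29.3 FPKM under CD4 depletion + anti-CTLA4, 19.1 and 16.9 FPKM in the libraries labelled anti-CTLA4, and 33.4 and 30.4 FPKM in IgG. Its difference was -0.79 (SE 0.16, adjusted p = 0.0128) for anti-CTLA4 against IgG. Atp5j2, a small membrane subunit, stood at 160, 185 and 200 FPKM under CD4 depletion + anti-CTLA4, 120 and 86.5 FPKM in the libraries labelled anti-CTLA4, and 205 and 212 FPKM in IgG, with -1.02 (SE 0.21, adjusted p = 0.0134). In both genes the 2 anti-CTLA4 values lay under all 5 others.

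Atp5k, subunit e, which helps ATP synthase form dimers, stood at 92.6, 102 and 107 FPKM under CD4 depletion + anti-CTLA4, 77.8 and 53.5 FPKM in the libraries labelled anti-CTLA4, and 116 and 138 FPKM in IgG, with -0.96 (SE 0.22, adjusted p = 0.0160) for anti-CTLA4 against IgG. Atp5f1, subunit b of the peripheral stalk, was at 92.8, 95.1 and 105 FPKM under CD4 depletion + anti-CTLA4, 58.8 and 44.9 FPKM in the libraries labelled anti-CTLA4, and 81.4 and 98.3 FPKM in IgG. Its difference was -0.79 (SE 0.19, adjusted p = 0.0199) against IgG, and 0.91 (SE 0.17, adjusted p = 0.0155) for CD4 depletion + anti-CTLA4 against anti-CTLA4, the smallest p of complex V in that comparison. Atp5sl, matched by its name but known as an assembly protein of complex I, was at 6.15, 7.42 and 8.37 FPKM under CD4 depletion + anti-CTLA4, 9.27 and 10.1 FPKM in the libraries labelled anti-CTLA4, and 8.02 and 8.89 FPKM in IgG. Its highest values were the 2 labelled anti-CTLA4, but the difference of 0.18 (SE 0.18, adjusted p = 0.465) did not pass. The difference of Atp5sl was called at 0.51 with median-of-ratios scaling and turned to -0.75 when libraries were scaled to the homeostatic list.

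Promoter sequence was set beside these values because so many members of different complexes lay on the same side of IgG. RefSeq windows of GRCm38, the assembly behind mm10, were found for 69 of the 82 members. The 250 bases before each start were searched on both strands for 4 motifs, whose letters were chosen after the values were seen: GCGCANGCG for nuclear respiratory factor NRF1, CCGGAAG for ETS factors such as GABPA, AANATGGCG for YY1 and TCAAGGTCA for oestrogen-related receptors. The NRF1 letters were in 13 of 69 member windows (18.8%), against 5.16% of all 32851 windows and 7.24% of 17491 protein-coding genes. The ETS letters were in 12 (17.4%), against 6.91% of all windows and 9.12% of protein-coding genes. The YY1 letters were in 2, Ndufb11 and Atp5j (2.90%, against 1.12% of all windows and 1.32% of protein-coding genes). The receptor letters were in 1, Atp5g3 (1.45%, against 0.387% and 0.314%). Matches of different motifs overlapped in 0 member windows and in 3 of all windows. Member windows had a median GC content of 56.0%, against 52.4% over all windows.

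The 13 members with NRF1 letters were Ndufa5, Ndufa8, Ndufa11, Ndufb4, Ndufs5, Ndufs6, Sdha, Sdhd, Cox6a1, Atp5g2, Atp5h, Atp5k and Atp5l. Their median log2 difference for anti-CTLA4 against IgG was -0.64 with 6 lower, and it was -0.70 with 33 lower among the 56 members without those letters. A match is a description of the letters, not of a bound site. The 150 bases before the start are shown for 6 of the 13, chosen after their values were seen as 4 members that fell (Ndufa5, Cox6a1, Atp5h and Atp5k) and 2 that did not pass (Sdha and Ndufb4), so that the letters can be compared across both outcomes. They run 5′ to 3′ on the minus strand at chr6:24527691-24527840 for Ndufa5, chr5:115348959-115349108 for Cox6a1, chr11:115419920-115420069 for Atp5h, chr5:108434400-108434549 for Atp5k, chr13:74350241-74350390 for Sdha and chr16:37654369-37654518 for Ndufb4. Capitals mark the NRF1 letters (in Atp5k a match on each strand, overlapping) and, in Cox6a1 and Atp5h, also the ETS letters as CTTCCGG on the other strand.
Ndufa5: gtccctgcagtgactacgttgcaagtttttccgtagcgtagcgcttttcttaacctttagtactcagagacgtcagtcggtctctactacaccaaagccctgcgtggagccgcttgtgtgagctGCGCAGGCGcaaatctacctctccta
Cox6a1: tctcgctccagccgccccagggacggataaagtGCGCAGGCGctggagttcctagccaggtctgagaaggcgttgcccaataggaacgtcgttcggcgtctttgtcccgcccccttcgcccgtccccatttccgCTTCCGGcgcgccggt
Atp5h: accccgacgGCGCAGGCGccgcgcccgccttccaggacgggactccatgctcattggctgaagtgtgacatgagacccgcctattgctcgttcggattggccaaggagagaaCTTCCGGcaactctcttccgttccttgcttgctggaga
Atp5k: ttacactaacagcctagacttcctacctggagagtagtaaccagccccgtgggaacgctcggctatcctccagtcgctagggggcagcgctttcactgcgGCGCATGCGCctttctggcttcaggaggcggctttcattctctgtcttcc
Sdha: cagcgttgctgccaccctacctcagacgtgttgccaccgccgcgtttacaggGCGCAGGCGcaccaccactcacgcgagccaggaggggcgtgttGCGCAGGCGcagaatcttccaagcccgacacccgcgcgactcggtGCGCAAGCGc
Ndufb4: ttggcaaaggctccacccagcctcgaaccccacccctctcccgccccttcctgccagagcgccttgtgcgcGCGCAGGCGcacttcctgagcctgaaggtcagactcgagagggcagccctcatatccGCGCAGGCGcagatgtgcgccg
Sdha has 3 matches in these bases and Ndufb4 has 2, and neither gene passed the test. Ndufa5, a supernumerary subunit of complex I with 1 match here, stood at 56.6, 70.7 and 103 FPKM under CD4 depletion + anti-CTLA4, 42.7 and 34.6 FPKM in the libraries labelled anti-CTLA4, and 78.4 and 86.3 FPKM in IgG, with -1.08 (SE 0.28, adjusted p = 0.0228) for anti-CTLA4 against IgG. Atp5h, subunit d of the ATP synthase stalk, was at 55.9, 63.7 and 69.97 FPKM under CD4 depletion + anti-CTLA4, 49.5 and 35.8 FPKM in the libraries labelled anti-CTLA4, and 76.2 and 82.04 FPKM in IgG, with -0.89 (SE 0.20, adjusted p = 0.0162).

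Regulators of mitochondrial gene expression, some of nuclear promoters and some of mitochondrial DNA, did not share 1 direction. Of 18 tested, 5 fell, 1 rose and 12 did not pass for anti-CTLA4 against IgG. The share that fell was near that of all genes tested, of which 28.8% fell and 9.29% rose. The list's median of -0.16 turned to 0.18 with median-of-ratios scaling and 0.12 with quantile normalization. Tfam, which packages and transcribes mitochondrial DNA, stood at 6.29, 8.13 and 8.79 FPKM under CD4 depletion + anti-CTLA4, 4.08 and 4.48 FPKM in the libraries labelled anti-CTLA4, and 9.76 and 8.57 FPKM in IgG, a difference of -0.94 (SE 0.20, adjusted p = 0.0133). Myc, a growth regulator that also raises mitochondrial genes, was at 54.6, 55.7 and 45.4 FPKM under CD4 depletion + anti-CTLA4, 24.4 and 13.8 FPKM in the libraries labelled anti-CTLA4, and 60.7 and 62.6 FPKM in IgG, with -1.69 (SE 0.26, adjusted p = 0.00936). Both had their lowest values in the libraries labelled anti-CTLA4.

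Nfe2l2, the regulator of the oxidative stress response, was at 69.3, 53.2 and 63.1 FPKM under CD4 depletion + anti-CTLA4, 102 and 102 FPKM in the libraries labelled anti-CTLA4, and 54.5 and 41.3 FPKM in IgG. It rose, with 1.08 (SE 0.20, adjusted p = 0.0109), and both anti-CTLA4 values lay above all 5 others. Nrf1, Gabpa, Esrra and Ppargc1a were named after their values were seen. Nrf1, whose motif is given above, was at 8.89, 11.6 and 10.1 FPKM under CD4 depletion + anti-CTLA4, 8.67 and 9.41 FPKM in the libraries labelled anti-CTLA4, and 9.71 and 11.2 FPKM in IgG, and its difference of -0.19 (SE 0.18, adjusted p = 0.424) did not pass. Gabpa, the ETS factor, had a difference of -0.42 (SE 0.18, adjusted p = 0.0964), and Esrra, an oestrogen-related receptor, one of 0.09 (SE 0.17, adjusted p = 0.690). Neither passed. Ppargc1a, the coactivator best known for raising mitochondrial genes, was low throughout, at 0.895, 1.37 and 1.52 FPKM under CD4 depletion + anti-CTLA4, 0.314 and 0.320 FPKM in the libraries labelled anti-CTLA4, and 1.17 and 1.82 FPKM in IgG, with -0.91 (SE 0.24, adjusted p = 0.0240).

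Other mitochondrial lists were counted in the same fit for anti-CTLA4 against IgG, where 28.8% of all genes tested fell. Of 18 tricarboxylic acid cycle genes 14 fell and 0 rose (median -0.84). Idh3a, the catalytic subunit of the NAD-dependent isocitrate dehydrogenase, had -1.37 (SE 0.21, adjusted p = 0.00936), and Mdh2, mitochondrial malate dehydrogenase, had -1.23 (SE 0.21, adjusted p = 0.0101). With median-of-ratios scaling 10 of the 18 fell (median -0.48). Of 78 mitochondrial ribosomal proteins, which translate the subunits encoded in mitochondrial DNA, 45 fell and 0 rose (median -0.71), and 11 fell with median-of-ratios scaling (median -0.36) or 23 with quantile normalization. Of 22 genes of protein import 14 fell and 0 rose (median -0.68), among them Hspd1, the matrix chaperonin, with -1.33 (SE 0.18, adjusted p = 0.00936). For import genes 4 fell with median-of-ratios scaling and 8 with quantile normalization. Of 9 carriers and partners of ATP synthase 5 fell and 0 rose (median -0.67), among them Slc25a4, an exchanger of ADP and ATP, with -1.45 (SE 0.27, adjusted p = 0.0115), and 3 fell with median-of-ratios scaling.

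Of 21 mobile carriers and enzymes of electron entry, 9 fell and 1 rose (median -0.49). With median-of-ratios scaling 0 of them fell and 1 rose (median -0.15), and with quantile normalization 1 fell and 1 rose. As deposited, the gene that rose was Sqrdl, which feeds electrons from sulfide to ubiquinone, with 0.78 (SE 0.21, adjusted p = 0.0274). Cycs, the somatic cytochrome c, named after its value was seen, had -0.78 (SE 0.21, adjusted p = 0.0278). Of 45 assembly factors, which build the complexes but are not part of them, 10 fell and 0 rose (median -0.39), a smaller share than among all genes. With median-of-ratios scaling 1 fell and 1 rose (median -0.07), and with quantile normalization 2 fell. Uqcc2, an assembly factor of complex III, had -1.21 (SE 0.26, adjusted p = 0.0146). Of 13 genes of mitochondrial dynamics and mitophagy 4 fell and 0 rose (median -0.45), and with median-of-ratios scaling 2 fell and 1 rose (median -0.10). Of the 6 subunits outside the naming pattern 3 fell, Romo1, Higd1a and Usmg5, and 1 fell with median-of-ratios scaling.

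Away from mitochondria, 8 of 18 glycolysis genes fell and 1 rose (median -0.70), and 22 of 81 cytoplasmic ribosomal proteins fell and 0 rose (median -0.43), a share near that of all genes. With median-of-ratios scaling 5 glycolysis genes fell and 1 rose, and 4 cytoplasmic ribosomal proteins fell and 3 rose (median -0.08). Members are short, with a median transcript of 680.5 nucleotides against 2747.5 over tested protein-coding genes. Of 924 other protein-coding genes with transcripts under 1000 nucleotides 275 fell and 80 rose, with a median of -0.40. Among the 82 members, Spearman's correlation of the log2 difference was 0.09 with length and -0.39 with mean level. Those points share libraries and are given as a description.

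Set against other lists within each library, the summed members were 8.36, 8.18 and 9.10 times the summed tricarboxylic acid cycle genes under CD4 depletion + anti-CTLA4, 9.80 and 8.64 times in the libraries labelled anti-CTLA4, and 8.64 and 8.84 times in IgG. To the mitochondrial ribosomal sum the ratio was 3.42, 3.37 and 3.71 under CD4 depletion + anti-CTLA4, 3.70 and 3.53 in the libraries labelled anti-CTLA4, and 3.57 and 3.77 in IgG. These ratios to mitochondrial lists overlapped between the groups. To the cytoplasmic ribosomal sum the ratio was 1.66, 1.95 and 2.11 under CD4 depletion + anti-CTLA4, 1.5 and 1.87 in the libraries labelled anti-CTLA4, and 2.1 and 1.99 in IgG. There the libraries labelled anti-CTLA4 lay below both IgG libraries but overlapped with CD4 depletion + anti-CTLA4. Against the homeostatic microglia sum the ratio was 0.466, 0.380 and 0.426 under CD4 depletion + anti-CTLA4, 0.177 and 0.105 in the libraries labelled anti-CTLA4, and 0.441 and 0.517 in IgG, with both libraries labelled anti-CTLA4 below all others. The homeostatic sum was itself higher in those libraries than in all others.

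**Figure D4:**
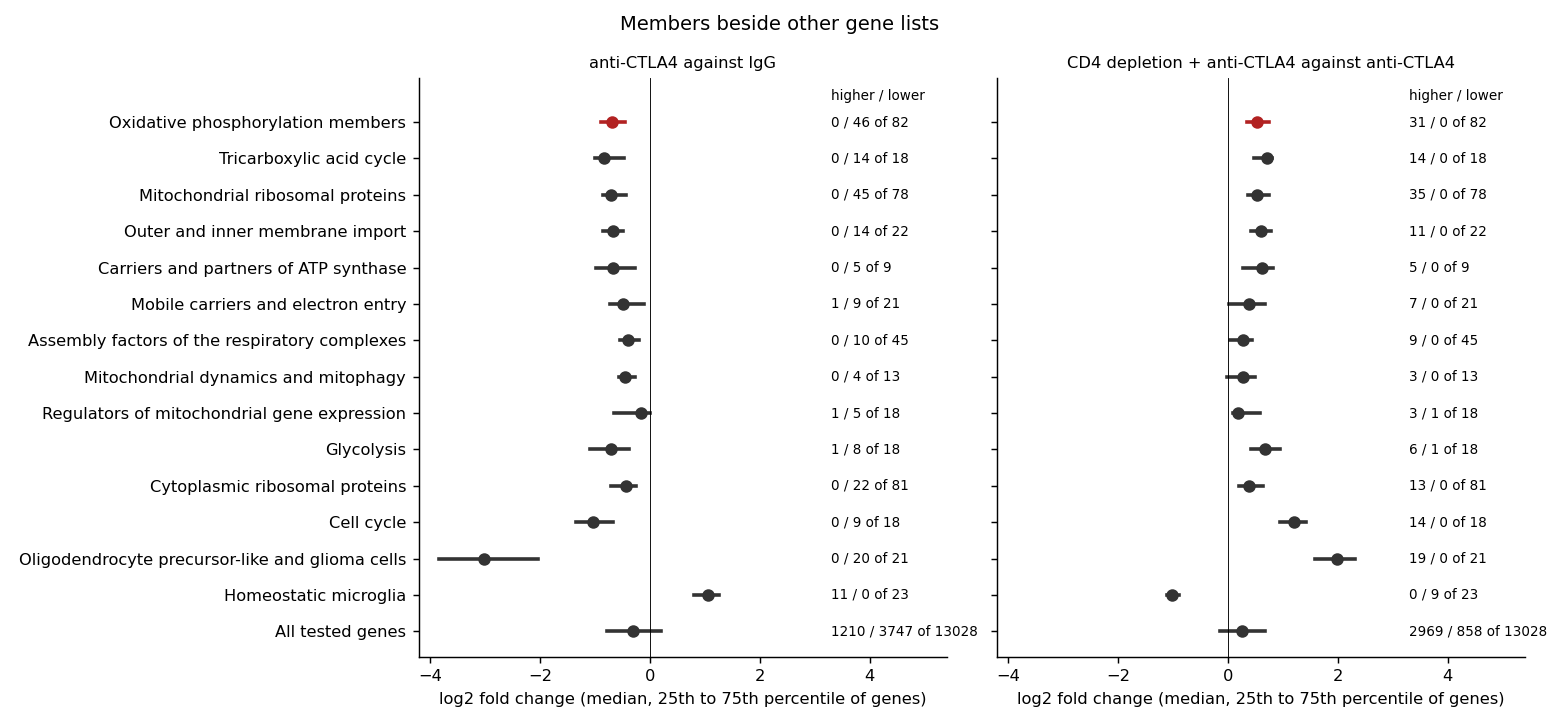
Median log2 fold change of FPKM + 1 (points) and 25th to 75th percentile of genes (bars) for the members, other gene lists and all genes tested, from FPKM as deposited, with the number called higher and lower by limma. The members, at -0.68 on the left and 0.52 on the right, lie near the tricarboxylic acid cycle, mitochondrial ribosome, import and glycolysis lists. Glycolysis, a list outside mitochondria, has medians of -0.70 and 0.67. Homeostatic microglia genes lie on the other side of 0.

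The second comparison asked how CD4 depletion changed the state under the checkpoint antibody, and it uses the same 2 anti-CTLA4 libraries as the first. In CD4 depletion + anti-CTLA4 against anti-CTLA4, 31 members rose, 0 fell and 51 did not pass, where 22.8% of all genes tested rose and 6.59% fell. The members' median log2 difference was 0.52 and that of all genes 0.27. The median member stood at 144% of its anti-CTLA4 mean. All 3 CD4 depletion libraries were above both anti-CTLA4 libraries for 66 members and below both for 2 (Cox8b and Atp5sl), against 44.7% and 15.7% of all genes tested.

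By complex, 13 of 36 members of complex I rose (median 0.52), 0 of 4 of complex II (median 0.22), 3 of 9 of complex III (median 0.45), 6 of 16 of complex IV (median 0.54) and 9 of 17 of complex V (median 0.63). For complex II, 2 members had an unadjusted p under 0.05 in limma. Sdhc had the smallest p of the 4, with 0.53 (SE 0.19, adjusted p = 0.0695), and Sdhb had -0.08 (SE 0.18, adjusted p = 0.744). The median of complex II was -0.10 with median-of-ratios scaling.

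Besides Ndufc1, Cyc1, Ndufa4, Cox7b and Atp5f1, whose values are given above, Atp5b rose on the log2 scale by 0.93 (SE 0.25, adjusted p = 0.0311), Ndufv2 by 0.72 (SE 0.19, adjusted p = 0.0302) and Uqcrq by 0.88 (SE 0.22, adjusted p = 0.0283). Ndufb6 and Ndufab1, named after their values were seen, were called here without being called against IgG. Ndufab1, the mitochondrial acyl carrier protein, stood at 8.86, 12.4 and 13.1 FPKM under CD4 depletion + anti-CTLA4, 7.21 and 6.31 FPKM in the libraries labelled anti-CTLA4, and 9.83 and 10.2 FPKM in IgG, with 0.67 (SE 0.19, adjusted p = 0.0381). Ndufb6, a membrane arm subunit, stood at 56.7, 50.5 and 49.9 FPKM under CD4 depletion + anti-CTLA4, 38.1 and 29.99 FPKM in the libraries labelled anti-CTLA4, and 45.4 and 52.5 FPKM in IgG, with 0.61 (SE 0.16, adjusted p = 0.0302). Cox8a did not pass, with 0.51 (SE 0.26, adjusted p = 0.163), and its value in CD4 depletion replicate 1 lay below that in anti-CTLA4 replicate 1. Cox8b had the most negative difference, -1.91 (SE 0.85, adjusted p = 0.121).

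With median-of-ratios scaling 3 members rose and 1 (Atp5sl) fell, with a median of 0.22 where that of all genes was 0.01, and over all genes 1455 rose and 1648 fell in place of 2969 and 858. With quantile normalization 19 members rose and 1 (Atp5sl) fell, and over all genes 1452 rose and 1460 fell. With libraries scaled to the homeostatic list 77 members rose, as did 9106 of all 13028 genes. With no level filter 0 members passed in limma and 46 had an unadjusted p under 0.05, while 516 of all genes rose and 246 fell. Without anti-CTLA4 replicate 2, 0 members and 0 of all genes were called by limma, and 20 members had an unadjusted p under 0.05. Without CD4 depletion replicate 2 the count was 4 higher (979 of all genes), without replicate 3 it was 2 (668 of all genes), and without either IgG library, which enter only through the shared spread, it was 14 higher and 1 lower (Cox8b). CD4 depletion replicate 1 stood apart in its monocyte and macrophage genes, whose FPKM summed to 3297 there, 214 and 800 in the group's other libraries, 1079 and 410 in the libraries labelled anti-CTLA4, and 143 and 519 in IgG. Ccr2, the receptor of inflammatory monocytes, was at 43.1 FPKM in that library and at 1.02 to 2.24 FPKM in the other 6. Without that library, 41 members rose and 0 fell, while 4133 of all genes rose and 1158 fell.

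In the same comparison 19 of 21 glioma and precursor genes rose, 9 of 23 homeostatic genes fell (16 with median-of-ratios scaling, 1 with quantile normalization) and 14 of 18 cell cycle genes rose. Of the mitochondrial lists, 14 of 18 tricarboxylic acid cycle genes, 35 of 78 mitochondrial ribosomal proteins, 11 of 22 import genes and 9 of 45 assembly factors rose, and none of these fell. The share of assembly factors was under the 22.8% of all genes. With median-of-ratios scaling 5 tricarboxylic acid cycle genes, 7 mitochondrial ribosomal proteins, 4 import genes and 0 assembly factors rose, and 1 import gene fell. Outside mitochondria, 6 of 18 glycolysis genes rose and 1 fell (median 0.67). Cytoplasmic ribosomal proteins rose in 13 of 81 cases and fell in 0 (median 0.39), a share under that of all genes. With median-of-ratios scaling 3 glycolysis genes and 4 cytoplasmic ribosomal proteins rose, and 1 glycolysis gene fell. Of 924 other short transcripts 238 rose and 55 fell (median 0.38). The part of the cell markers in the members' rise was not tested.

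The third comparison, which shares libraries with both others, set CD4 depletion + anti-CTLA4 against IgG. Here 0 members passed with limma in either direction, as did 0 of all 13028 genes (0% higher and 0% lower), while 851 genes had an unadjusted p under 0.05. Among members this held for 2, Ndufs4 and Ndufv3. Ndufs4, a subunit of complex I known from a mouse model of Leigh syndrome, was at 23.3, 27.8 and 26.2 FPKM under CD4 depletion + anti-CTLA4, 27.3 and 18.7 FPKM in the libraries labelled anti-CTLA4, and 33.2 and 38.02 FPKM in IgG, a difference of -0.45 (SE 0.19, adjusted p = 0.710). Ndufv3, a small subunit beside the NADH site, was at 68.2, 76.7 and 66.9 FPKM under CD4 depletion + anti-CTLA4, 64.6 and 52.02 FPKM in the libraries labelled anti-CTLA4, and 88.01 and 105 FPKM in IgG, with -0.44 (SE 0.17, adjusted p = 0.710).

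The members' median difference was -0.14 and that of all genes -0.04. Summed members averaged 7960 FPKM under CD4 depletion + anti-CTLA4 and 8750 FPKM in IgG, which is 91.0%. The medians of the 5 complexes ran from -0.145 to -0.105. A p that misses the threshold with 3 and 2 libraries does not show that the groups were alike. For 18 of the 82 members, Cox6a1, Sdha, Sdhc and Atp5k among them, all 3 CD4 depletion libraries were below both IgG libraries, against 16.2% of all genes tested. They were above both IgG libraries for 2 members, against 11% of all genes tested.

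**Figure D5:**
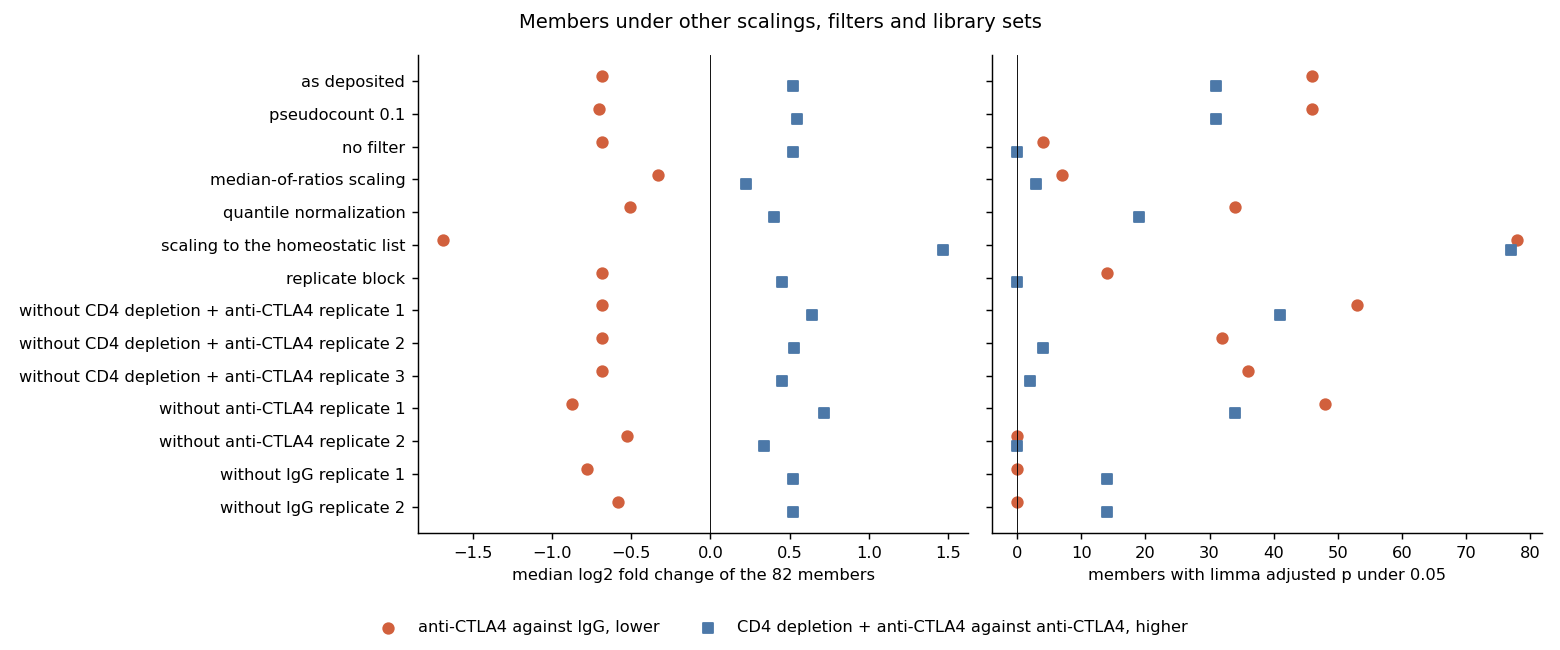
Median log2 fold change of the 82 members (left) and number called by limma (right) as deposited and under other scalings, filters and sets of libraries. Circles are anti-CTLA4 against IgG and squares CD4 depletion + anti-CTLA4 against anti-CTLA4. The medians keep their sign in every setting shown, while the counts run from 0 to 78 lower and from 0 to 77 higher.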

How the data were processed

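Per the file headers, the authors made the deposited FPKM values with HOMER's analyzeRepeats on mm10 (no tool version stated), over exons, on both strands, with 1 transcript kept per gene, and the submitters' processing notes also name STAR and DESeq2. For neither tool is a version recorded there. The cDNA, per the labels, came from an ultra-low-input kit and was sequenced on a HiSeq2500.

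From there, log2(FPKM + 1) was fitted with limma 3.58.1 (R 4.3.3, trended prior) for genes at 1 FPKM or more in at least 2 of 7 libraries, with the 3 groups sharing 1 estimate of spread. P-values were adjusted by the Benjamini-Hochberg method across the 13028 genes, and 0.05 was the threshold. A fold change on this scale understates low genes. Depth was read from the steps of low values: in transcripts of 200 to 800 nucleotides, 100% of 272 to 304 values per library came within 0.1 of a whole number of reads, up to 20 reads. The fit was tested on simulated data.

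Values in each library are given, by rule, for the 3 members of smallest p and the 1 of largest p per complex, all of complex II, the smallest p per complex after CD4 depletion, the 3 most abundant members and the paralog pairs; other lists give up to 3 genes of smallest p. Exceptions are named as such. Members and lists were chosen with earlier results of these data known. Alternatives changed the pseudocount, level filter, scaling, replicate block and set of libraries. Promoters came from RefSeq GRCm38.p6.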

Additional observations from a re-analysis of the deposited data

How the results depend on the processing

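For anti-CTLA4 against IgG, the members' median was -0.33 with median-of-ratios scaling (7 lower, 1 higher) and -1.69 with scaling to the homeostatic list (78 lower), quantile normalization gave -0.51 (34 lower), and with no level filter 4 were lower. For CD4 depletion + anti-CTLA4 against anti-CTLA4, the median was 0.224 with median-of-ratios scaling (3 higher, 1 lower) and 1.47 with scaling to the homeostatic list (77 higher), quantile normalization gave 19 higher and 1 lower, and no level filter gave 0 higher. Scaling to the homeostatic list also turned Atp5sl to -0.75 and Sdhb to -1.01 for anti-CTLA4 against IgG, and Sdhb to 0.879 for CD4 depletion + anti-CTLA4 against anti-CTLA4. That scaling moved the median of all genes to -1.10 in the first comparison and to 0.996 in the second. It divides each library by its level of the homeostatic list. The factors were 1.41 and 1.92 in the libraries labelled anti-CTLA4 and 0.839 and 0.757 in IgG. Under CD4 depletion + anti-CTLA4 they were 0.6505, 0.957 and 0.938. Dividing by larger factors lowers every gene in the libraries labelled anti-CTLA4, so these shifts follow from the scale. Why the list was higher there was not tested. A pseudocount of 0.1 kept both counts at 46 and 31, where 3825 of all genes were lower in the first comparison and 3192 higher in the second.

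With each library left out in turn, anti-CTLA4 against IgG gave 0 to 53 members lower and 0 to 1 higher (median -0.877 to -0.525), and CD4 depletion + anti-CTLA4 against anti-CTLA4 gave 0 to 41 higher and 0 to 1 lower (median 0.338 to 0.718). The highest counts, 53 and 41, both came without CD4 depletion replicate 1. There 4425 of all genes were lower in the first comparison and 4133 higher in the second. Where a group was left with 1 library, that library was assumed to vary like the others. Whether replicate numbers pair the samples could not be settled. Deviations from the group mean correlated at -0.205 to 0.123 for same-numbered libraries and at -0.123 to 0.205 for differently numbered ones. In a group of 2 libraries these deviations mirror each other, so the values cannot exclude pairing. With the replicate block, 14 members were lower for anti-CTLA4 against IgG and 0 higher for CD4 depletion + anti-CTLA4 against anti-CTLA4 (limma, 27 at unadjusted p under 0.05), where over all genes 597 were higher and 2068 lower in the first and 0 were called in the second. With the IgG numbers crossed, an alternative chosen after seeing the data, 32 members were lower and 1 higher for anti-CTLA4 against IgG. Over all genes 2732 were lower and 1085 higher in that setting. For CD4 depletion + anti-CTLA4 against IgG, where the crossed numbers were not run, 0 members were called with limma in the other settings and 0 to 3 had an unadjusted p under 0.05. With no level filter 3 of all genes were lower there. Among the named members, pooled over the 3 comparisons, 871 recomputed differences kept their direction and side of the threshold, 181 lost the call, 27 gained it, 49 uncalled ones changed sign and 3 are the turned values above. CD4 depletion + anti-CTLA4 against IgG, with no member called in any setting, could add no lost or gained call. Leaving out a library of the group not compared also cannot change a difference. The count of 871 is thus no measure of stability. Precision is limited by the 2 or 3 libraries in a group, and for 6 members of low level also by fewer than 100 implied reads in some library.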
